A study of Drosophila melanogaster with 12 samples.

Results

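The microtubule and axonal transport genes described here are 10 fly genes chosen by name from general knowledge of their function. They encode proteins that bind, build or modify microtubules, subunits of the kinesin and dynein motors, and a subunit of dynactin. Of the 10, 9 had at least 1 probe set annotated to that gene alone, among 11982 genes measured in the same way. These are futsch, tau, Map205, stai, Klc, unc-104, Dhc64C, DCTN1-p150 and HDAC6. Khc, the motor subunit of kinesin-1, had no probe set annotated to it alone and was not analysed here. The 9 genes were read by 13 probe sets, with 3 each for futsch and Dhc64C and 1 for every other member.

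Microtubules are polar tracks of tubulin that run along the axon. Kinesins carry vesicles and mitochondria along them towards the synapse, and dynein, with its activator dynactin, carries cargo back to the cell body. Microtubule-associated proteins such as Futsch and Tau bind the track, stathmins bind free tubulin, and HDAC6 removes acetyl groups from tubulin. TBPH is the fly homologue of the RNA-binding protein TDP-43, and futsch and HDAC6 transcripts are known as its targets.

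RNA came from whole heads of adult flies at 60 h after eclosion. The neuronal rescue flies carried the tbphΔ23 deletion, elav-GS-GAL4 and UAS-TBPH, and were fed 5 mM RU-486 for those 60 h, which switches the transgene on in neurons only. The other groups were flies with the tbphΔ142 allele, flies with the tbphΔ23 allele and w1118 controls. No drug is given for any of these, so the drug, the transgenes and restored TBPH cannot be told apart in the rescue. The rescue shares the allele of tbphΔ23 and not that of tbphΔ142. Each group had 3 arrays that the labels call biological replicates. Neither the sex of the flies nor the number of heads per array is stated in the sources used here. In whole heads, fewer cells of a type and less RNA per cell cannot be told apart.

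All values are log2 intensities made by RMA, a method that corrects background, equalises the distribution of the arrays and summarises the probes of a set. The size of a value depends on the probes, so it is compared between groups and never between genes. Differences are in log2 units, and a gene passed when the adjusted p of limma, corrected over all 11982 genes within a comparison, was under 0.05. For futsch and Dhc64C single probe sets were also fitted, with the correction over 13647 probe sets. Intervals are 95% confidence intervals of the difference. The standard error of such a difference was 0.0928 at the median over all genes, and precision is set by having 3 arrays a group.

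Rescue arrays differed more among themselves than the others. The mean correlation of an array with its own group was 0.973 for rescue replicate 1 and at least 0.984 for the other rescue arrays, against at least 0.995 elsewhere. The brighter of the TBPH probe sets averaged 9.51 ± 0.34 in the rescue, 5.43 ± 0.10 in tbphΔ142, 8.19 ± 0.12 in tbphΔ23 and 7.98 ± 0.03 in w1118 (SD, n = 3 each). Its position on the transcript is not given, so it checks neither deletion. In tbphΔ23 it did not pass the test.

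Futsch, the fly homologue of mammalian MAP1B, binds microtubules in axons and at the neuromuscular synapse. Its brightest probe set read 10.37, 10.44 and 10.36 in the rescue, 10.11, 10.20 and 9.89 in tbphΔ142, 10.49, 10.42 and 10.43 in tbphΔ23, and 9.93, 9.84 and 9.77 in w1118. Every tbphΔ23 and rescue array was therefore above every tbphΔ142 and w1118 array, and only tbphΔ142 replicate 3 lay within the w1118 range. Futsch by this probe set rose in tbphΔ23 by 0.60 relative to w1118, or 1.52-fold (adjusted p = 0.000267). In tbphΔ142 the difference was 0.22 with an interval of 0.0466 to 0.400, and it did not pass the test (adjusted p = 0.0672). Without tbphΔ142 replicate 3 that difference was 0.31 and passed (adjusted p = 0.0104). With all arrays kept it passed with array weights (0.24, adjusted p = 0.0297) and with dim probe sets filtered out (0.22, adjusted p = 0.0405).

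In the neuronal rescue this reading of futsch was still above the control. It was 0.54 above w1118, or 1.46-fold (adjusted p = 0.000226), and 0.32 above tbphΔ142 (adjusted p = 0.0117). Against tbphΔ23 the rescue differed by -0.06, with an interval of -0.235 to 0.119. The mutants also differed from each other, with tbphΔ142 lower than tbphΔ23 by 0.38 (-0.38, adjusted p = 0.0267). This last call was lost when any of 5 arrays was left out, namely tbphΔ142 replicate 1 or 3 or any of the tbphΔ23 arrays (adjusted p up to 0.0842).

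The other futsch probe sets read dimly and passed in none of the 6 comparisons. The middle of the 3 sets in brightness averaged 4.35 ± 0.08 in the rescue, 4.34 ± 0.11 in tbphΔ142, 4.34 ± 0.03 in tbphΔ23 and 4.38 ± 0.16 in w1118. The dimmest set averaged 3.68 ± 0.13 in the rescue, 3.57 ± 0.15 in tbphΔ142, 3.66 ± 0.06 in tbphΔ23 and 3.45 ± 0.05 in w1118. Because a gene's value is the median of its probe sets, the gene value of futsch is that of the middle set, and it differed from w1118 by -0.05 in tbphΔ23 (adjusted p = 0.783). Futsch thus did not pass by its gene value, while it passed in tbphΔ23 and in the rescue against w1118 by its brightest probe set and by the mean of its sets (0.25 in both, adjusted p = 0.0313 and 0.0233). The name of the brightest set has the suffix that these arrays give to sets whose probes are shared by several transcripts. Where the 3 sets lie along futsch is not stated in the sources used here.

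**Figure D1:**
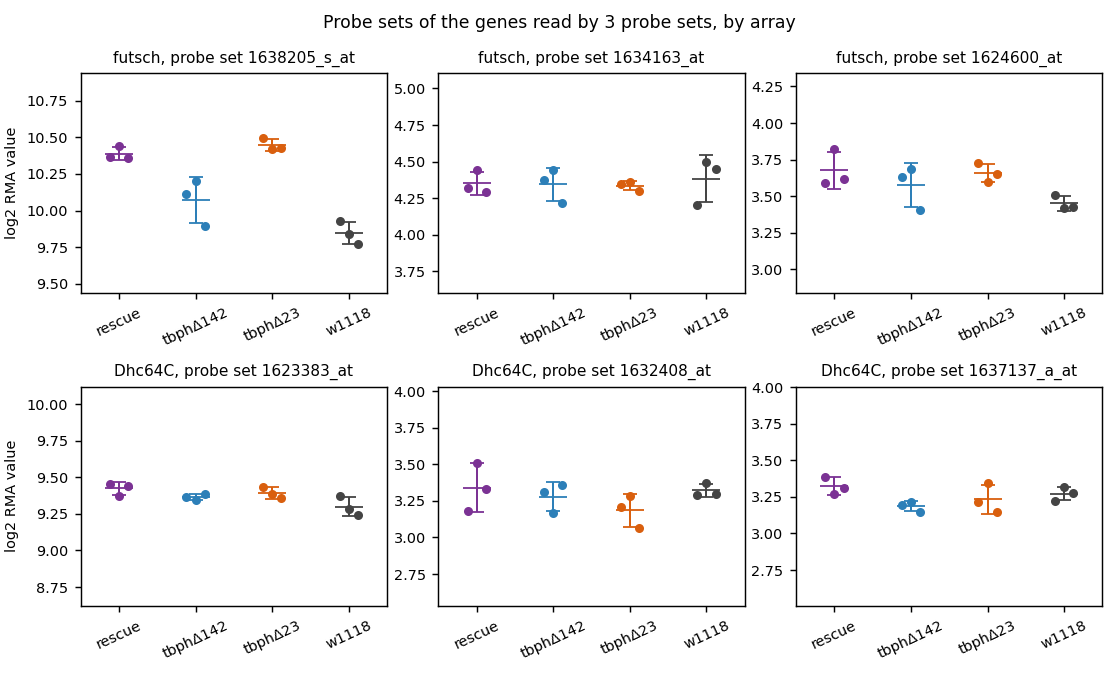
Log2 intensity of each probe set of futsch and Dhc64C on the 12 arrays, with groups on the x axis, points for arrays and bars for group means ± SD. The brightest futsch set separates tbphΔ23 and the rescue from w1118, while the dim sets of both genes read at most 4.50 on any array.

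Tau, the homologue of the mammalian microtubule-binding protein of that name, followed a similar order. It read 9.58, 9.74 and 9.98 in the rescue, 9.54, 9.57 and 9.23 in tbphΔ142, 9.49, 9.70 and 9.73 in tbphΔ23, and 9.21, 8.88 and 9.26 in w1118. All rescue and tbphΔ23 arrays were above all w1118 arrays, and tbphΔ142 overlapped w1118 through its replicate 3. Tau rose in tbphΔ23 by 0.52, or 1.44-fold (adjusted p = 0.016), and in the rescue by 0.65, or 1.57-fold (adjusted p = 0.00242), both relative to w1118. In tbphΔ142 the difference from w1118 was 0.33 with an interval of 0.0356 to 0.623 (adjusted p = 0.101). The rescue did not pass against tbphΔ142 (0.32, adjusted p = 0.102) or tbphΔ23 (0.13, adjusted p = 0.524). The rise in tbphΔ23 was lost without tbphΔ23 replicate 2 or 3 or w1118 replicate 2, at adjusted p of 0.0576 to 0.0632. Without tbphΔ142 replicate 3 the tbphΔ142 difference from w1118 was 0.44 and passed (adjusted p = 0.0466). The rescue passed against tbphΔ142 with array weights (adjusted p = 0.0408) or without rescue replicate 1 (adjusted p = 0.0436).

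Map205, a microtubule-associated protein that also binds the kinase Polo, was higher in the rescue. It read 8.67, 8.86 and 8.79 in the rescue, 8.69, 8.75 and 8.49 in tbphΔ142, 8.53, 8.58 and 8.61 in tbphΔ23, and 8.33, 8.38 and 8.55 in w1118. The rescue arrays lay above every tbphΔ23 and w1118 array, and both mutants overlapped w1118. Map205 rose in the rescue by 0.35 relative to w1118, or 1.28-fold (adjusted p = 0.00719). The differences of 0.23 in tbphΔ142 (adjusted p = 0.0812) and 0.15 in tbphΔ23 (adjusted p = 0.255) did not pass. Without tbphΔ142 replicate 3 or w1118 replicate 3 the tbphΔ142 difference passed (adjusted p = 0.0275 and 0.0423). It also passed with all arrays and array weights (adjusted p = 0.0344).

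Stai encodes stathmin, which binds tubulin dimers and destabilises microtubules, and it was lower in the rescue alone. It read 8.62, 8.32 and 8.78 in the rescue, 9.08, 9.21 and 8.90 in tbphΔ142, 9.01, 9.18 and 9.16 in tbphΔ23, and 9.33, 9.002 and 9.55 in w1118. Every rescue array was below every other array, while both mutants overlapped w1118. Stai fell in the rescue by 0.49 relative to tbphΔ142 (adjusted p = 0.0272), by 0.55 relative to tbphΔ23 (adjusted p = 0.0149) and by 0.72 relative to w1118, to 0.606-fold (adjusted p = 0.00222). The difference from w1118 was -0.23 in tbphΔ142, with an interval of -0.553 to 0.0894, and -0.18 in tbphΔ23, with an interval of -0.498 to 0.145. Without rescue replicate 2 the fall against tbphΔ142 (adjusted p = 0.10) and tbphΔ23 (adjusted p = 0.0605) no longer passed. The fall against tbphΔ142 was also lost without tbphΔ142 replicate 1 or 2 and that against tbphΔ23 without tbphΔ23 replicate 2.

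Among the kinesin genes, Klc encodes the light chain that links kinesin-1 to its cargo. It read 9.16, 9.02 and 9.14 in the rescue, 9.194, 9.197 and 9.204 in tbphΔ142, 9.30, 9.24 and 9.19 in tbphΔ23, and 9.33, 9.33 and 9.34 in w1118. The rescue arrays were the lowest, the w1118 arrays were the highest, and the mutants lay between them. Klc fell in the rescue by 0.23 relative to w1118, to 0.854-fold (adjusted p = 0.00943). The differences of -0.14 in tbphΔ142 (adjusted p = 0.118) and -0.09 in tbphΔ23 (adjusted p = 0.319) did not pass.

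Unc-104 is the kinesin-3 motor that carries synaptic vesicle precursors. It read 11.43, 11.43 and 11.57 in the rescue, 11.48, 11.57 and 11.29 in tbphΔ142, 11.46, 11.58 and 11.57 in tbphΔ23, and 11.48, 11.05 and 11.38 in w1118. All groups overlapped w1118, whose replicate 2 was the lowest array. No comparison passed, and the interval of the tbphΔ23 difference of 0.23 was -0.00718 to 0.470. The intervals of the rescue differences were -0.205 to 0.272 against tbphΔ142 and -0.295 to 0.182 against tbphΔ23.

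Dhc64C encodes the heavy chain of cytoplasmic dynein, its motor subunit. Its brightest probe set read 9.45, 9.37 and 9.44 in the rescue, 9.36, 9.34 and 9.39 in tbphΔ142, 9.44, 9.38 and 9.36 in tbphΔ23, and 9.37, 9.28 and 9.24 in w1118. Its group means lay within 0.12 of each other at most (rescue against w1118, interval -0.00516 to 0.254) and no comparison passed. The other Dhc64C sets had group means of 3.19 to 3.34, and as they make the gene's median, the gene value follows them. It averaged 3.41 ± 0.09 in the rescue, 3.30 ± 0.07 in tbphΔ142, 3.23 ± 0.10 in tbphΔ23 and 3.32 ± 0.04 in w1118, and passed in no comparison.

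DCTN1-p150 encodes the fly p150Glued, the dynactin subunit that binds both dynein and the microtubule. It was the only member that passed in both mutants. It read 7.42, 7.40 and 7.53 in the rescue, 7.68, 7.78 and 7.70 in tbphΔ142, 7.76, 7.604 and 7.68 in tbphΔ23, and 7.94, 7.94 and 7.99 in w1118. The w1118 arrays were above all others, the rescue arrays were below all others, and the mutants overlapped each other between them. DCTN1-p150 fell by 0.24 in tbphΔ142 (0.848-fold, adjusted p = 0.0167) and by 0.28 in tbphΔ23 (0.825-fold, adjusted p = 0.00838), both relative to w1118.

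In the rescue the DCTN1-p150 reading was lower, not higher, than in either mutant. It fell in the rescue by a further 0.27 relative to tbphΔ142 (adjusted p = 0.00778) and 0.23 relative to tbphΔ23 (adjusted p = 0.0171). Relative to w1118 it fell in the rescue by 0.51, to 0.703-fold (adjusted p = 5.96e-05). The mutants differed by 0.04, with an interval of -0.099 to 0.179. The fall in tbphΔ142 was lost without tbphΔ142 replicate 1 (adjusted p = 0.0633) or w1118 replicate 3 (adjusted p = 0.0579) and with arrays centred on their medians (-0.19, adjusted p = 0.106). The fall against tbphΔ23 was lost without rescue replicate 1 or 2 or tbphΔ23 replicate 1, at adjusted p of 0.0567 to 0.0716. It was also lost with arrays centred (-0.20, adjusted p = 0.0682) and in a fit of the 2 compared groups only (adjusted p = 0.0565).

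Over the 12 arrays the genes whose values were most like those of DCTN1-p150 were CG12483 (Pearson's r = 0.967), CalpC, which encodes a calpain (0.967), and sit (0.966). They are the top 3 of 11982 genes, so the height of r is partly fixed by the choice, and the 4 groups make up much of the variance that the arrays share. For the brightest futsch probe set the most alike probe sets belonged to Cph (0.968), simj (0.966) and Mapmodulin (0.953), a list made after the values of futsch had been seen. Mapmodulin, a binder of microtubule-associated proteins, rose by 0.27 in tbphΔ23 (adjusted p = 0.0095) and by 0.22 in the rescue (adjusted p = 0.0143), both relative to w1118.

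HDAC6, the tubulin deacetylase, was higher in the rescue than in tbphΔ23. It read 8.36, 8.51 and 8.37 in the rescue, 8.26, 8.06 and 8.36 in tbphΔ142, 8.05, 7.97 and 7.90 in tbphΔ23, and 8.20, 8.16 and 8.15 in w1118. The tbphΔ23 arrays were the lowest, the tbphΔ142 arrays straddled w1118, and the rescue arrays were above those of tbphΔ23 and w1118. HDAC6 rose in the rescue by 0.44 relative to tbphΔ23, or 1.35-fold (adjusted p = 0.00157), and this call held under all 21 alternative settings. In tbphΔ23 it read 0.20 below w1118 (-0.20, interval -0.377 to -0.0209), which did not pass (adjusted p = 0.111), and in tbphΔ142 the difference was 0.06 (adjusted p = 0.692).

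The rescue was also 0.24 above w1118 for HDAC6 (adjusted p = 0.0394), a call that 8 of the alternatives ended. It was lost without rescue replicate 2 (0.19, adjusted p = 0.134) or 3, without any w1118 replicate, and without tbphΔ142 replicate 1 or tbphΔ23 replicate 2, which enter only through the spread shared by the groups. Against tbphΔ142 the rescue did not pass (0.18, adjusted p = 0.125). The difference between tbphΔ142 and tbphΔ23 of 0.25 did not pass either (adjusted p = 0.123).

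**Figure D2:**
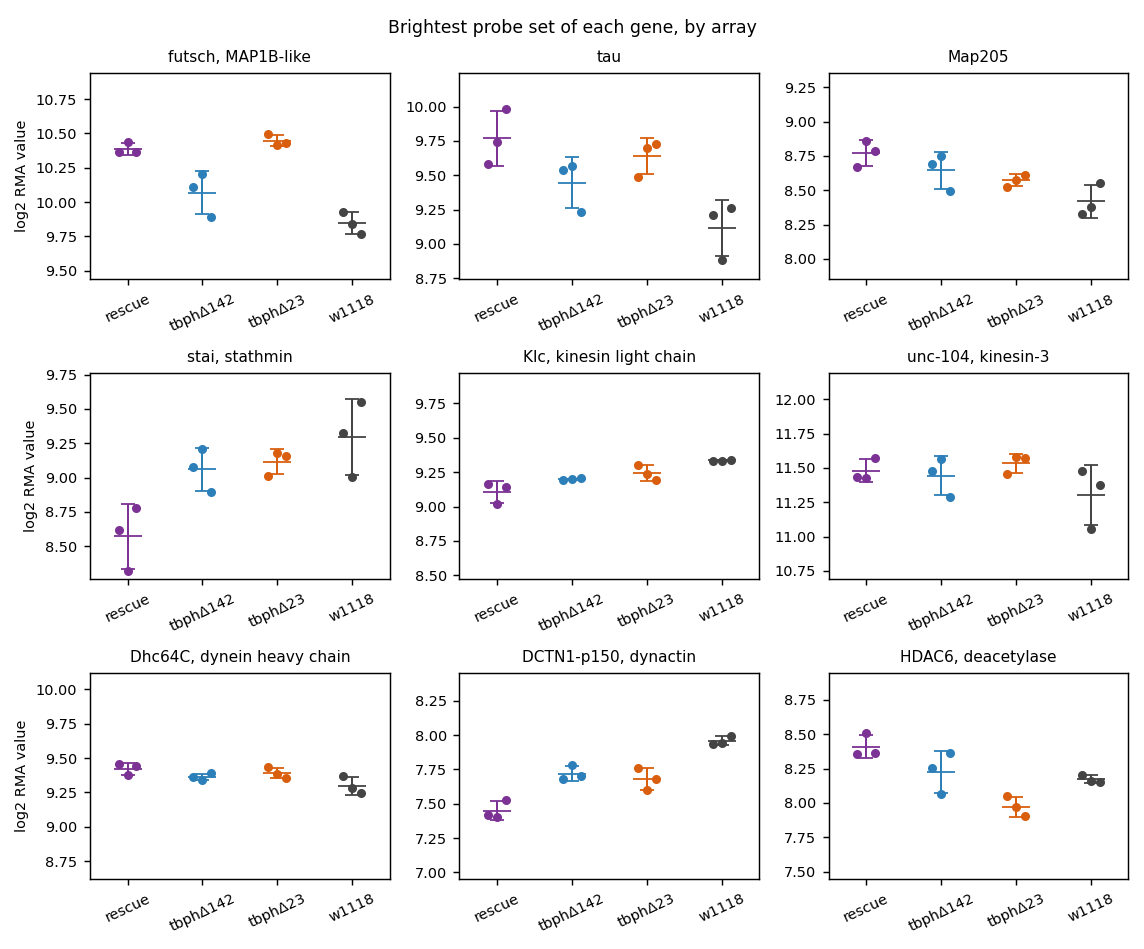
Log2 intensity of each member on the 12 arrays, with groups on the x axis, points for arrays and bars for group means ± SD. The brightest probe set is drawn where a gene has several. DCTN1-p150 steps down between w1118, the mutants and the rescue, and stai is lower in the rescue alone.

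The order of the group means differed between members. Futsch by its brightest set had tbphΔ23 and the rescue at the top with no difference that passed between them, then tbphΔ142, then w1118, which did not differ past the threshold from tbphΔ142. Tau had the rescue, tbphΔ23, tbphΔ142 and w1118 in falling order, and no neighbours in that order differed past the threshold. Map205 ran rescue, tbphΔ142, tbphΔ23, w1118, again with no neighbours that differed past the threshold. Stai, Klc and DCTN1-p150 had w1118 highest and the rescue lowest. For HDAC6 the rescue was highest and tbphΔ23 lowest.

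Counted over the 9 measured members by gene value, 0 were higher and 1 was lower in tbphΔ142 than in w1118. Of all genes 25.0% passed in that comparison, and 15.0% were lower. At an unadjusted p under 0.05, 2 members (tau and Map205) were higher and 2 (Klc and DCTN1-p150) lower there. In tbphΔ23 1 was higher and 1 lower than in w1118, beside 21.3% of all genes, with 9.40% higher and 11.9% lower. Relative to tbphΔ142 the rescue had 0 higher and 2 lower, beside 27.5% of all genes, with 14.3% higher and 13.2% lower. Relative to tbphΔ23 it had 1 higher and 2 lower, beside 29.5% of all genes, with 14.3% higher and 15.1% lower. Of the members 22.2% were lower in the rescue in each of these last comparisons.

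Between the rescue and w1118, 3 members were higher (tau, Map205 and HDAC6) and 3 lower (stai, Klc and DCTN1-p150), beside 35.0% of all genes, with 16.9% higher and 18.0% lower. Between tbphΔ142 and tbphΔ23 no member passed by its gene value, where 3.49% of all genes did, 1.42% higher and 2.07% lower, and at an unadjusted p under 0.05 there was 1 member, HDAC6. By its brightest probe set 1 member, futsch, was lower there, beside 2.23% of all probe sets. By that probe set futsch also added 1 higher member in tbphΔ23 against w1118, in the rescue against tbphΔ142 and in the rescue against w1118. The shares of all probe sets that were higher there were 9.75%, 13.6% and 16.8%. Over the 6 comparisons, 6 of the 9 passed in at least 1 by gene value, a share that was not computed for all genes. The median difference of the members was -0.03 in tbphΔ142 and -0.09 in tbphΔ23 relative to w1118, beside -0.01 and -0.02 over all genes. In the rescue it was 0.03 relative to tbphΔ142, 0.02 relative to tbphΔ23 and 0.09 relative to w1118, beside 0.01 over all genes in each. In both mutants that median is the gene value of Dhc64C, and its sign turns with the choice of probe set. With each member's brightest probe set the median was 0.07 in tbphΔ142 and 0.09 in tbphΔ23 relative to w1118. In the rescue it was then 0.06 relative to tbphΔ142, -0.06 relative to tbphΔ23 and 0.18 relative to w1118. The comparisons share groups, so a member's calls in them are not independent.

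**Figure D3:**
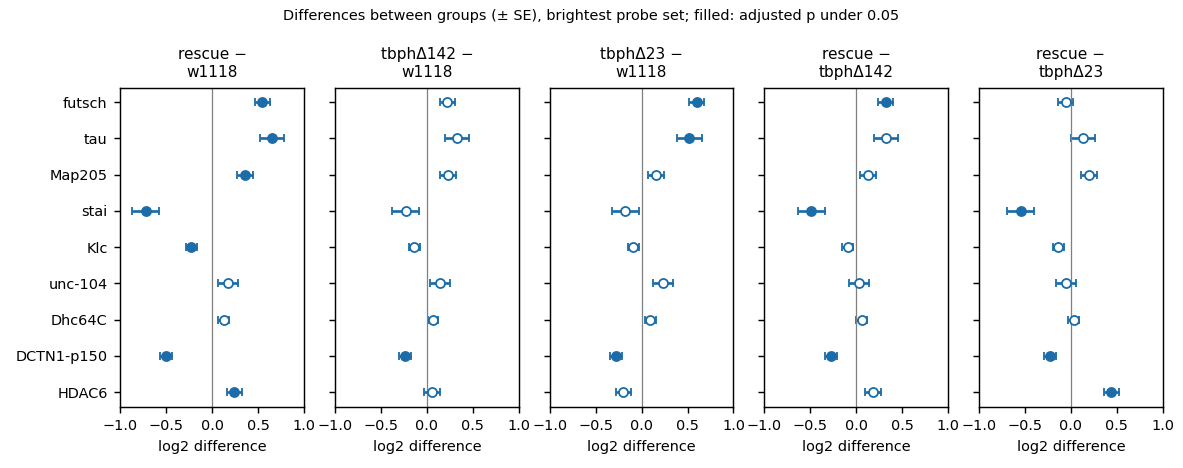
Log2 difference of each member in 5 comparisons, a panel each, with its standard error as a bar, by brightest probe set, filled where limma's adjusted p over 13647 probe sets was under 0.05. The widest shifts are those of stai and tau in the rescue against w1118, below and above 0.

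Other genes of the same pathways were taken from lists of motors, adaptors, dynactin, tubulins, microtubule-binding proteins, severing enzymes, tubulin-modifying and folding proteins and kinases. Of 103 listed genes, 89 were measured, and 42 of these passed in at least 1 of the 4 comparisons made in the study's methods. The matching share of all genes was not computed, so the 42 cannot be judged against it. In tbphΔ142 5 were higher and 11 lower than in w1118 (5.62% and 12.4%), beside 25.0% of all genes in either direction and 15.0% lower. In tbphΔ23 11 were higher and 7 lower (12.4% and 7.87%), beside 9.40% and 11.9%. In the rescue 8 were higher and 13 lower than in tbphΔ142 (8.99% and 14.6%), beside 14.3% and 13.2%. Relative to tbphΔ23 2 were higher and 21 lower there (2.25% and 23.6%), beside 14.3% and 15.1%. The counts were not tested as lists. Of the 8 measured tubulin genes 0 passed in either mutant against w1118 by limma's adjusted p, beside 25.0% and 21.3% of all genes. At an unadjusted p under 0.05 there were 1 in tbphΔ142 and 0 in tbphΔ23. Of the 8, 4 read under 5 in every group, and alphaTub84B had no probe set annotated to it alone. In the rescue 1 was lower than in tbphΔ142 and 2 lower than in tbphΔ23, beside 13.2% and 15.1% of all genes.

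Of the 89 genes, 9 passed in both mutants with the same sign, 3 higher and 6 lower, beside 6.14% and 9.68% of all genes. Wnd, the kinase DLK that acts in axon injury signalling, rose by 1.32 in tbphΔ142 (adjusted p = 5.14e-07) and by 1.40 in tbphΔ23 (adjusted p = 4.14e-07). It averaged 8.97 ± 0.12 in the rescue, 8.88 ± 0.04 in tbphΔ142, 8.96 ± 0.04 in tbphΔ23 and 7.56 ± 0.11 in w1118 (SD, n = 3 each), and w1118 overlapped no other group. It stayed 1.41 above w1118 in the rescue (adjusted p = 5.95e-08). Aplip1, the JIP1 homologue that links cargo to kinesin-1, rose by 1.35 in tbphΔ142 and 1.23 in tbphΔ23 and its rescue value exceeded that of w1118 by 1.09 (adjusted p = 2.05e-05). The dynein light intermediate chain gene Dlic rose by 0.21 in tbphΔ142 and by 0.28 in tbphΔ23, and its tbphΔ142 call was lost without tbphΔ142 replicate 2 or w1118 replicate 1 or 3.

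Arl8, a small GTPase that couples lysosomes and synaptic vesicle precursors to kinesins, was lower in both mutants and higher again in the rescue. It averaged 8.57 ± 0.08 in the rescue, 7.87 ± 0.06 in tbphΔ142, 7.97 ± 0.11 in tbphΔ23 and 8.82 ± 0.05 in w1118 (SD, n = 3 each), and the rescue arrays lay between those of the mutants and w1118 without overlap. It fell by 0.96 in tbphΔ142 (adjusted p = 3.17e-06) and by 0.85 in tbphΔ23 (adjusted p = 9.3e-06), both relative to w1118. In the rescue it was 0.70 above tbphΔ142 (adjusted p = 2.82e-05) and 0.59 above tbphΔ23 (adjusted p = 7.05e-05). It was still below w1118 there (-0.26, adjusted p = 0.0145), a call lost without rescue replicate 2 or w1118 replicate 1. Of the 9, Dlic too turned back towards w1118 against both mutants, at -0.18 against tbphΔ142 (adjusted p = 0.0376, lost in 12 of the 21 alternatives) and -0.26 against tbphΔ23 (adjusted p = 0.00566).

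The largest fall of the 89 genes in the rescue relative to either mutant was that of Nna1. It encodes a carboxypeptidase of the family that trims glutamates from tubulin. Nna1 averaged 6.68 ± 0.05 in the rescue, 9.12 ± 0.09 in tbphΔ142, 9.93 ± 0.25 in tbphΔ23 and 10.45 ± 0.25 in w1118. It fell by 1.32 in tbphΔ142 and by 0.52 in tbphΔ23 relative to w1118, and the rescue differed by -2.45 from tbphΔ142 (adjusted p = 2.13e-07) and by -3.25 from tbphΔ23 (adjusted p = 2.24e-08). The fall in tbphΔ23 was lost without tbphΔ23 replicate 1 or 2 or w1118 replicate 2. Tbcb, a tubulin folding cofactor, fell by 0.96 in tbphΔ142, by 0.71 in tbphΔ23 and by 1.42 in the rescue, all relative to w1118. NudC, a dynein-associated chaperone, fell by 1.62 in tbphΔ142 and 0.99 in tbphΔ23, and was 1.80 below w1118 in the rescue (-1.80, adjusted p = 1.57e-06).

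Within the dynactin complex DCTN1-p150 was not the only subunit to pass. The capping protein gene cpa fell by 0.22 in tbphΔ142 and 0.19 in tbphΔ23 and by 0.58 in the rescue relative to w1118 (adjusted p = 1.18e-05), with w1118 highest and the rescue lowest, as for DCTN1-p150. DCTN4-p62 fell by 0.28 in tbphΔ142 (adjusted p = 0.0486) and 0.31 in tbphΔ23 (adjusted p = 0.0363). Those calls of DCTN4-p62 were lost in 14 and 8 of the 21 alternatives, and those of cpa in 3 (tbphΔ142) and 13 (tbphΔ23), in each case also when a single array of the compared groups was left out. Of the 8 dynactin subunits measured beside DCTN1-p150, 3 were lower in tbphΔ142 and 2 in tbphΔ23 than in w1118, and 0 were higher, beside 15.0% and 11.9% of all genes lower. The third call in tbphΔ142 was that of DCTN2-p50 (-0.19, adjusted p = 0.0473), lost in 15 of the 21 alternatives. In the rescue 3 of the 8 were lower than in each mutant and 0 higher, beside 13.2% and 15.1% of all genes lower. These were cpa, cpb and DCTN5-p25, and the cpb call against tbphΔ142 was lost in 7 alternatives. DCTN4-p62 and DCTN2-p50 passed against neither mutant, at 0.04 and 0.10 relative to tbphΔ142 and 0.07 and 0.01 relative to tbphΔ23.

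**Figure D4:**
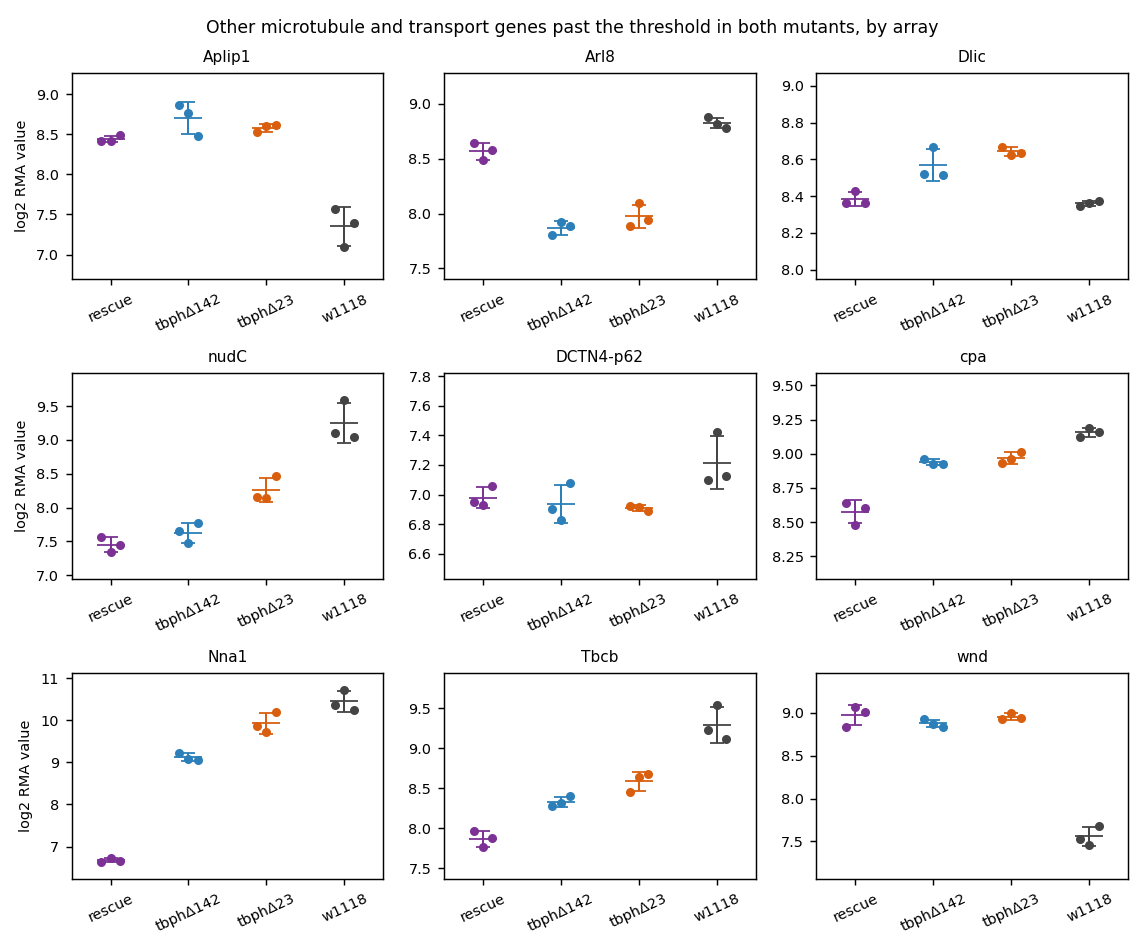
Log2 intensity of the 9 other microtubule and transport genes that passed in both mutants, on the 12 arrays, with groups on the x axis, points for arrays and bars for group means ± SD. Arl8 is lower in the mutants than in the rescue and w1118, and Nna1 is lowest in the rescue.

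Marker genes of head cell types were counted in the same way. Of 11 measured neuron markers, 2 were higher and 2 lower in tbphΔ142 than in w1118, beside 25.0% of all genes that passed. In tbphΔ23 3 were higher and 0 lower than in w1118, beside 21.3% of all genes. In the rescue 4 were higher and 4 lower than in w1118, beside 35.0%. Relative to tbphΔ142 the rescue had 1 higher and 0 lower, beside 14.3% and 13.2% of all genes. Relative to tbphΔ23 it had 0 higher and 4 lower (36.4%), beside 14.3% and 15.1%. Elav, an RNA-binding protein of neurons whose promoter drives the rescue, was 0.30 above w1118 in the rescue, 0.31 in tbphΔ142 and 0.36 in tbphΔ23 (adjusted p = 0.0139, 0.0165 and 0.00747). Para was also above w1118, by 0.41 in the rescue, 0.46 in tbphΔ142 and 0.60 in tbphΔ23. ChAT and Rdl were the 2 lower in tbphΔ142, at -0.43 and -0.23. In the rescue ChAT, Gad1, Rdl and nrv3 were the 4 lower, at -0.57, -0.42, -0.36 and -0.18. The summed linear level of the list was 14288 to 14929 in the rescue, 14809 to 16537 in tbphΔ142, 16902 to 17512 in tbphΔ23 and 16066 to 17753 in w1118. Brp and VGlut read under 5 in every group by the median of their 4 and 2 probe sets. Their single probe sets were not examined, so a bright set may be hidden there, as for futsch.

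Of 9 measured glia markers, 3 were lower and 0 higher in each mutant than in w1118, namely repo, wrapper and Mdr65. Of all genes 15.0% were lower in tbphΔ142 and 11.9% in tbphΔ23. Repo, the transcription factor that defines most glia, differed by -0.35 in tbphΔ142 and by -0.33 in tbphΔ23. In the rescue 1 glia marker was higher and 3 lower than in w1118, beside 16.9% and 18.0% of all genes. Relative to tbphΔ142 the rescue had 2 higher and 1 lower, beside 14.3% and 13.2%. Relative to tbphΔ23 it had 3 higher and 2 lower, beside 14.3% and 15.1%. Repo and wrapper were higher in both, and moody was lower in both (-0.27 and -0.31). Relative to tbphΔ23, Tret1-1 was also higher (0.77) and Mdr65 lower (-0.42). Mdr65 was also 0.93 below w1118 in the rescue (-0.93, adjusted p = 2.23e-06). The summed level of the glia list was 11905 to 12803 in the rescue, 11130 to 12107 in tbphΔ142, 11512 to 12921 in tbphΔ23 and 10688 to 13074 in w1118, so all groups overlapped. Of 6 photoreceptor markers, 2 were higher in tbphΔ142 and 3 in tbphΔ23, with 0 lower in either. Of all genes 25.0% and 21.3% passed there in either direction. In the rescue 1 of the 6 was higher and 0 lower than in w1118, beside 16.9% and 18.0% of all genes. Their summed level was 46167 to 48377 in the rescue, 48170 to 48602 in tbphΔ142, 49933 to 50354 in tbphΔ23 and 44026 to 46063 in w1118. Of 10 ciliated sense organ markers 1 was lower and 0 higher in each mutant than in w1118, and 8 read under 5 in every group. In the rescue 4 of the 10 were higher and 1 lower than in w1118, beside 16.9% and 18.0% of all genes. The median difference of the list from w1118 was 0.09 in tbphΔ142, 0.15 in tbphΔ23 and 0.19 in the rescue. The summed level of that list was 186 to 369 in the rescue, 126 to 137 in tbphΔ142, 134 to 155 in tbphΔ23 and 550 to 626 in w1118. That sum is weighted to the brightest genes and does not stand for most of the list. The part of these shifts in the mutant values of DCTN1-p150, tau and futsch was not tested.

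In the rescue 5 of 7 muscle markers and 1 of 7 fat body markers were lower than in w1118. Higher there were 1 muscle marker (TpnC4), 5 fat body markers and 5 of 8 hemocyte markers, and 2 hemocyte markers (vkg and Col4a1) were lower. Of all genes 16.9% were higher and 18.0% lower in that comparison. The summed level of the fat body list was 68365 to 75738 in the rescue, 21608 to 28642 in tbphΔ142, 8641 to 12378 in tbphΔ23 and 17019 to 30358 in w1118. That of the muscle list was 4524 to 6400 in the rescue, 8716 to 9525 in tbphΔ142, 8301 to 9356 in tbphΔ23 and 9414 to 10582 in w1118. Much of the fat body sum lay in the yolk protein genes Yp1, Yp2 and Yp3, at 13.55, 14.00 and 13.89 in the rescue. Apolpp and fit, at 13.63 and 13.18 there, also made up much of it. Relative to w1118, apolpp was higher in the rescue by 1.18 (adjusted p = 0.00213) and Lsp2 by 3.96 (adjusted p = 0.0033). Fbp1 went the other way, at 3.24 in the rescue and 6.73 in w1118. As the sex of the flies is not stated, a different mix of sexes and more fat body RNA cannot be told apart. The part of these shifts in the values of stai, Klc, DCTN1-p150, tau, Map205 and HDAC6 was not tested.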

How the data were processed

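The authors made the deposited log2 values from scanned 3′ expression arrays by RMA, with background correction and quantile normalization, and deposited 1 column per array for 12 arrays. No source used here gives the RMA version. Of 18952 probe sets, 13647 are annotated to 1 gene, 402 to several and 4903 are not listed. Only the 13647 were used, and they were collapsed by median to 11982 genes, of which 1094 have several probe sets. Symbols were updated through RefSeq for 13544 probe sets, and 103 kept the annotated symbol. No gene was filtered by level. Array medians were 4.40 to 4.49.

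Group means were fitted with limma 3.58.1 in R 4.3.3 (lmFit and eBayes) over all 4 groups, with two-sided p-values and Benjamini-Hochberg adjustment within each of 6 comparisons. The members, the lists and the alternatives were chosen with earlier results of these data known. Genes named beside the members are, from each list, at most 4 that changed most in the mutants and at most 4 that changed most between the rescue and the mutants, among those that passed. Those discussed are mainly the ones that passed in both mutants, a choice made after their values were seen. Replicate numbers did not pair arrays across groups, with residual correlations of -0.212 to 0.0914 over 18 pairs. On simulated data for tbphΔ142 against w1118, the fit recovered 100% of genes changed by a log2 of 1 and 80% of those changed by 0.5, with 7 false calls among 11982 genes. Alternatives were other ways to combine probe sets, other scalings, a filter on dim genes, a fit of the 2 compared groups, array weights, a replicate block and leaving out each array.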

Additional observations from a re-analysis of the deposited data

Results flagged for a closer look

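Differences between the mutant alleles themselves passed the test for 1 member, for TBPH and for 5 other named microtubule and transport genes. Futsch by its brightest probe set differed by -0.38 in tbphΔ142 relative to tbphΔ23. TBPH differed by -1.52 by its gene value and by -2.76 by its brighter probe set. Of the other genes, nudC differed by -0.63, the carboxypeptidase gene Nna1 by -0.81 and the mitochondrial adaptor gene milt by -0.39. The microtubule-destabilising kinesin gene Klp10A differed by -0.36 and ssp2 by -0.44. Each of these was lower in tbphΔ142 than in tbphΔ23. Among the marker genes, Yp1, Yp2, Yp3 and NimC1 passed as higher in tbphΔ142 (1.92, 2.84, 2.06 and 0.47). Yp1, Yp2 and Yp3 are yolk protein genes, and the sex of the flies is not stated for either mutant. The calls for futsch, nudC, milt, Klp10A and ssp2 were lost in 6, 8, 7, 4 and 6 of the 21 alternatives, each time including fits without a single array.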

How the results depend on the processing

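With each gene read by its brightest probe set or each probe set fitted singly, the sign of futsch turned. It then differed by 0.60 in tbphΔ23 and 0.54 in the rescue relative to w1118 and by -0.38 between tbphΔ142 and tbphΔ23, and with the mean of its probe sets by 0.25 and 0.25 in the first comparisons (adjusted p = 0.0313 and 0.0233). The number of members that passed between tbphΔ142 and tbphΔ23 was then 1, not 0. In tbphΔ142 against w1118 it was 0 with arrays centred or quantile normalized again and 2 with array weights, against 1 otherwise. Leaving out single arrays gave 0 to 3 there, 1 to 2 in tbphΔ23 against w1118, 1 to 3 in the rescue against either mutant and 5 to 6 in the rescue against w1118. With the replicate block 5 members passed in the rescue against w1118, since HDAC6 did not (adjusted p = 0.0668), and no other call of a member changed. Of 1122 values of members under the 21 alternatives, 1080 kept direction and side of the threshold, 25 lost the call, 9 gained it and the 8 of futsch turned. Over all named genes 143 values that passed in neither setting changed sign. Dim probe sets limit what can be read from the gene values of futsch and Dhc64C.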
